A study of Mus musculus with 4 samples.

Results

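The insulin-like growth factor (IGF) binding axis was examined in fasted and refed mouse liver through 6 genes, *Igf1*, *Igfals* and the binding protein genes *Igfbp1*, *Igfbp2*, *Igfbp3* and *Igfbp4*. Its members were the array spots that target a gene and carry one of these 6 gene names in the scanner files, whatever their value. This gave 11 probes with 1 spot each, out of 39429 probes on the array, namely 5 for *Igf1*, 2 for *Igfbp2* and 1 for each of the others. The study asked whether DNA binding by the transcription factor CREB changes with fasting, and used these arrays to see which genes differ in expression between the fasted and the refed state.

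All 8 livers came from male C57BL/6J mice (the strain field reads C57/Bl6) aged 8 to 12 weeks, and the labels name no genetic change in any of them. The 4 fasted mice had been without food for 24 h. The 4 refed mice had gone through the same 24 h fast and then had food for 2 h, so the comparison is between a fast and the first hours after it, and no mouse was sampled without a fast. Total RNA of a fasted and a refed liver, paired at random, was hybridised together on each of 4 arrays, with 1 sample in the red dye Cy5 and the other in the green dye Cy3. Each array is called a replicate (n = 4), and its value for a probe is a log2 ratio with the fasted liver on top, where values above 0 mean more RNA in the fasted liver. The fasted liver carried Cy5 on replicates 1 and 2 and Cy3 on replicates 3 and 4.

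IGF1 is a growth-promoting peptide hormone, and the liver makes most of the IGF1 that circulates, under the control of growth hormone. In blood it is held by IGF binding proteins, which lengthen its life and limit its access to the receptor. Most of it travels in a complex with IGFBP3 and the acid-labile subunit, a leucine-rich repeat glycoprotein that hepatocytes secrete and *Igfals* encodes. IGFBP1 forms smaller complexes that turn over quickly, and its liver transcription is a classical example of a process that insulin shuts off.

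The sequences that the probes carry show what was measured for the members the results turn on. For *Igfbp1* and for an overlapping pair of *Igf1* probes the first 30 of 60 bases are given, and for *Igfals* and the dimmer *Igfbp2* probe the whole probe. Capitals mark bases that both *Igf1* probes share, and the other probes have none.

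Igfbp1 A_51_P447545: aaagttccgatgctgattgtgtaaccaaag
Igfals A_51_P277088: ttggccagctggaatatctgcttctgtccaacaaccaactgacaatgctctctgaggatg
Igfbp2 A_55_P2056729: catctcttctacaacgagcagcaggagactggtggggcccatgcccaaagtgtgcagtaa
Igf1 A_55_P2085984: cctaccaaataacaataataAGTCCAATAA
Igf1 A_55_P2031631: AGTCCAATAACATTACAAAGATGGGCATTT

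All 11 probes were well above background in both dyes on all 4 arrays. No spot of theirs was saturated or had its signal, as distinct from its local background, marked as an outlier. The 11 probes were therefore among the 19719 probes kept (16053 gene names), and no member was lost to the filter on dim probes. Two-sided tests were made with limma on the 4 log2 ratios, adjusted over all kept probes. Calls needed both an adjusted p below 0.10 and a difference of 1.5-fold or more. By these limits 1 of the 6 genes, *Igfbp1*, was higher in fasted liver and 1, *Igfals*, was lower. Over all kept probes 1.70% were called higher and 2.08% lower, and by the brightest probe of each gene these shares were 1.82% and 2.13% of genes. The other 4 genes, with 9 probes, were not called in either direction. Precision is limited by there being 4 arrays.

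The liver label was checked with markers of its cell types. All 7 hepatocyte markers were kept, at a mean log2 intensity of 14.94 to 15.31 in the fasted and 14.71 to 14.96 in the refed livers, and 1 of them (*Tat*) was called higher. Their mean log2 ratio was above 0 on every array, from 0.11 to 0.57, though the markers differed. Single genes averaged from -0.14 (*Ttr*) to 0.84 (*Tat*), and *Alb* was at 0.33, 0.63, -0.24 and -0.30. The part of these markers in the results below was not tested. Markers of Kupffer cells (5 of 6 kept), sinusoidal endothelium (6 of 6), stellate cells (5 of 6), bile duct (3 of 5), blood (2 of 3) and adipose tissue (1 of 3) had no called gene. The 2 blood markers nevertheless varied widely, with mean log2 ratios of 1.42, -0.27, 1.80 and 0.19 on replicates 1 to 4, and the adipose marker *Cfd* was at -0.22, 0.55, -1.37 and 0.42. Kupffer cell markers were at 0.51, -0.25, 0.57 and -0.22, and bile duct markers at 0.02, -0.24, -0.56 and 0.41. Sinusoidal endothelium and stellate cell markers lay between -0.17 and 0.23. Their part in the results below was not tested either. One sample stood apart: the refed liver of replicate 3 had a mean level of 11.6 over 4 kept markers of pancreatic acinar cells, against 7.63 to 8.34 in the other 7 livers. The mean of each member's brightest probe without replicate 3 is therefore given below. Arrays of the same dye orientation correlated at 0.66 and 0.75 over all kept probes and arrays of opposite orientation at 0.22 to 0.40, so the dye term of each member probe is given below.

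*Igfbp1* encodes the binding protein that insulin represses, and its level was high in fasted liver and low after 2 h of food. In bulk liver RNA, fewer cells of a type and less RNA per cell cannot be told apart. Its level, as a log2 intensity per liver, was 15.80, 14.77, 14.53 and 14.72 in the fasted livers of replicates 1 to 4. In the refed livers it was 9.09, 8.35, 10.01 and 10.16. The 2 sets did not overlap, and the lowest fasted liver lay 4.37 above the highest refed one. Over all kept probes, 5.80% had all 4 fasted livers above all 4 refed livers. In unprocessed median brightness the *Igfbp1* spot read 26475 to 35980.5 in fasted and 285 to 1584.5 in refed liver.

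The log2 ratios of *Igfbp1* were 6.72, 6.41, 4.52 and 4.55. All 4 arrays were far above 0, and even the lowest was a 22.9-fold difference. The mean was 5.55 ± 1.18 (SD, n = 4), which is 46.9-fold, with a 95% interval of 4.56 to 6.54 and an adjusted p of 0.00372 in limma. This was the highest mean log2 ratio of all 19719 kept probes. Its SD was also wide, above that of 99.7% of kept probes, whose median SD was 0.183.

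The spread of *Igfbp1* followed the dye orientation. Its mean log2 ratio was 6.56 on the arrays with the fasted liver in Cy5 and 4.54 on those with it in Cy3, and a dye term in the model was estimated at 1.01 (adjusted p of 0.00327 in limma). A dye effect passed an adjusted p of 0.10 at 14.8% of all kept probes. The refed livers differed more between orientations than the fasted ones, at 8.35 and 9.09 in Cy3 against 10.01 and 10.16 in Cy5. Each orientation held its own livers, so dye and liver cannot be told apart in this difference. With the dye term in the model the mean of *Igfbp1* was the same by construction and its adjusted p was 6.56e-06. Without replicate 3 the mean was 5.89 (adjusted p of 0.0121).

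**Figure D1:**
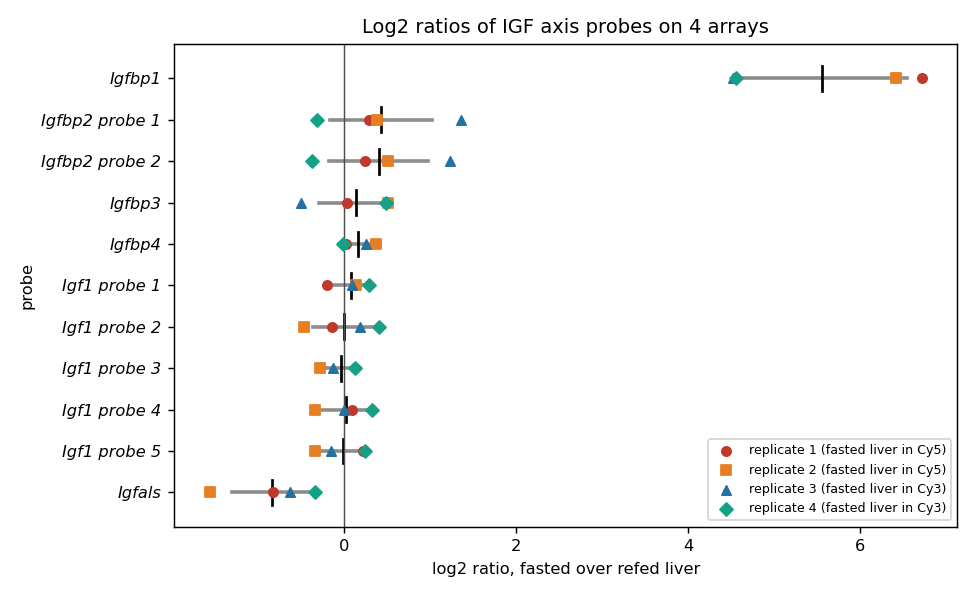
Log2 ratio of fasted over refed liver (x axis) for each of the 11 probes (y axis). Each symbol is 1 array, the black tick is the mean of 4 arrays and the grey bar its 95% interval from limma; *Igfbp1* lies between 4.52 and 6.72, *Igfals* between -1.56 and -0.34, and the other probes lie on both sides of 0 or reach it.

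*Igfals*, which encodes the acid-labile subunit that stabilises the large IGF complexes in blood, was the member that was lower in fasted liver. Its log2 intensity was 9.15, 9.10, 9.71 and 9.79 in the fasted livers and 9.98, 10.66, 10.34 and 10.13 in the refed livers of replicates 1 to 4. Every fasted liver was below every refed one, but by a gap of only 0.19 at the nearest pair, and 7.79% of all kept probes had their fasted livers all below the refed ones. The log2 ratios were -0.83, -1.56, -0.63 and -0.34. Replicate 2 had the largest difference, 2.96-fold, and replicate 4 the smallest, 1.27-fold. All 4 had the same sign.

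The mean log2 ratio of *Igfals* was -0.84 ± 0.52 (SD, n = 4), a level 1.79-fold lower in fasted liver, with a 95% interval of -1.30 to -0.38. Its adjusted p of 0.0600 in limma lay inside the limit of 0.10 and outside one of 0.05. Of all kept probes, 1.15% had a lower mean log2 ratio. The call was lost when replicate 1 was left out (mean of -0.84, adjusted p of 0.121) and when replicate 3 was left out (mean of -0.91, adjusted p of 0.152), and also when the background fit used all spots (mean of -0.65, adjusted p of 0.559). As for *Igfbp1*, the ratio was larger in size with the fasted liver in Cy5, at a mean of -1.19 against -0.48 in Cy3, but here the dye term of -0.36 was not called (adjusted p of 0.144). With the dye term in the model the adjusted p was 0.0102.

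**Figure D2:**
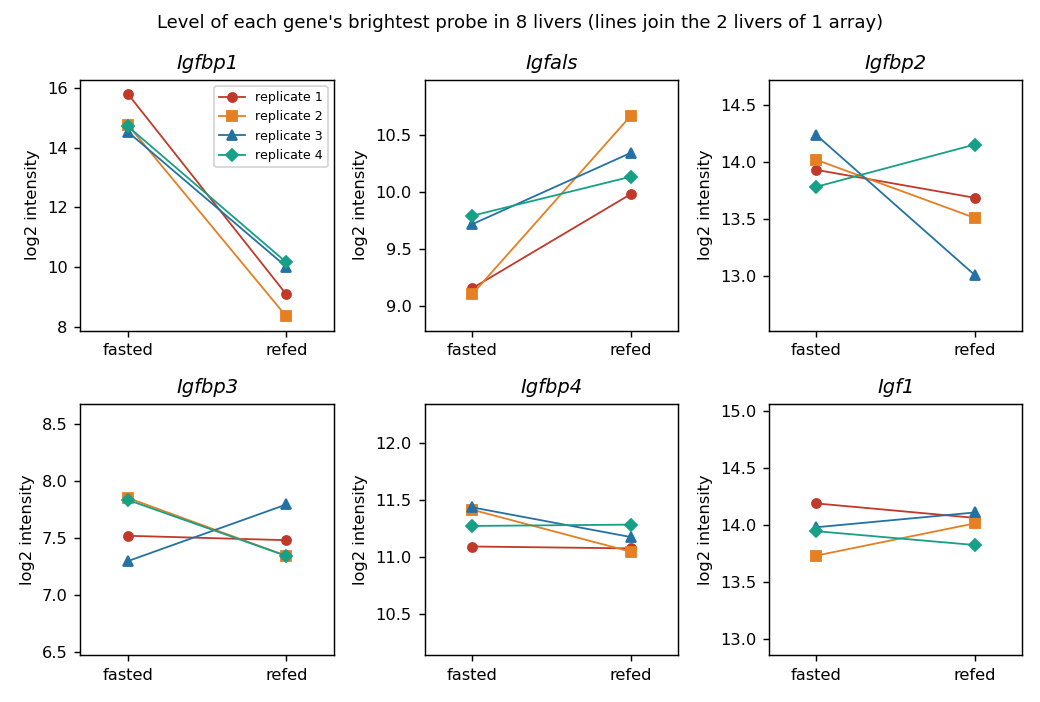
Log2 intensity per liver (y axis; each panel has its own range) of the brightest probe of each gene in the 4 fasted and 4 refed livers (x axis). Lines join the livers that shared an array; the lines of *Igfbp1* all fall and those of *Igfals* all rise from fasted to refed, while those of *Igfbp2*, *Igfbp3*, *Igfbp4* and *Igf1* cross.

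*Igfbp2* encodes another binding protein that the liver secretes, and its difference between fasted and refed liver did not pass the test. Its brightest probe had log2 intensities of 13.93, 14.02, 14.23 and 13.78 in fasted and 13.68, 13.51, 13.004 and 14.15 in refed liver. The first 3 arrays were above 0 and replicate 4 was below it, with log2 ratios of 0.24, 0.51, 1.23 and -0.37. The mean was 0.40 ± 0.66 (SD, n = 4; adjusted p of 0.397 in limma), with a 95% interval of -0.17 to 0.98. In folds that interval runs from 0.889-fold to 1.97-fold, so neither a small fall nor a rise past the limit of 1.5-fold is outside it. The second probe, printed above, lies nearby in the same gene and had log2 ratios of 0.29, 0.38, 1.36 and -0.32, with a mean of 0.43 (adjusted p of 0.389). Both probes differed by at most 0.13 on any array, so the wide SD of *Igfbp2*, above that of 97.8% of kept probes for the brightest probe, was shared by separate spots. The largest *Igfbp2* ratio came from replicate 3, where the refed liver had the lowest level of the 8 and also carried the acinar markers. Without that array the mean of the brightest probe was 0.13, and without replicate 4 it was 0.66 (adjusted p of 0.179), so a single array moved it in either direction.

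*Igfbp3* encodes the chief carrier of circulating IGF1. It lies beside *Igfbp1* on chromosome 11, on the opposite strand and with 4092 bases between their probes. Its log2 intensity was 7.52, 7.85, 7.29 and 7.83 in fasted and 7.48, 7.34, 7.79 and 7.34 in refed liver. These sets overlapped fully. Of the 11 probes this was the dimmest, at 94 to 293 in fasted and 109 to 207.5 in refed liver in unprocessed median brightness. The log2 ratios of 0.04, 0.51, -0.50 and 0.49 gave a mean of 0.14 ± 0.47 (SD, n = 4; adjusted p of 0.731 in limma), with a 95% interval of -0.29 to 0.56. Single arrays moved this mean, to 0.35 (adjusted p of 0.291) without replicate 3, and to 0.011 without replicate 2 and 0.017 without replicate 4. On the same arrays the log2 ratio of *Igfbp1* exceeded that of *Igfbp3* by 6.68, 5.91, 5.02 and 4.06.

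*Igfbp4* encodes a binding protein that inhibits IGF action until a protease cleaves it. In fasted liver its log2 intensity was 11.09, 11.41, 11.43 and 11.27, and in refed liver 11.07, 11.04, 11.17 and 11.28. The 8 livers lay within a narrow range. The log2 ratios of 0.02, 0.37, 0.26 and -0.01 averaged 0.16 ± 0.19 (SD, n = 4; adjusted p of 0.393 in limma). The 95% interval of -0.06 to 0.38 ends at a 1.302-fold higher level in fasted liver, which is short of the limit of 1.5-fold. Without replicate 3 the mean was 0.12, and leaving out each array in turn gave 0.088 to 0.21.

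*Igf1* encodes the hormone itself, and its transcript did not pass the test at any of 5 probes along the gene. The brightest had log2 intensities of 14.19, 13.73, 13.98 and 13.95 in fasted and 14.07, 14.02, 14.11 and 13.83 in refed liver. Its log2 ratios were 0.13, -0.28, -0.13 and 0.12. The mean of -0.04 ± 0.20 (SD, n = 4; adjusted p of 0.867 in limma) had a 95% interval of -0.27 to 0.19, that is from 0.828-fold to 1.14-fold. Without replicate 3 the mean was -0.012, and leaving out each array in turn gave -0.097 to 0.039. The other 4 probes had means of 0.08, -0.0048, 0.02 and -0.0093, with adjusted p between 0.702 and 0.991 in limma. Of these, 3 belong to the same RefSeq transcript as the brightest probe, and the one at 0.08 is assigned to another *Igf1* transcript.

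Set out by array, the 5 *Igf1* probes had a median log2 ratio of 0.09 on replicate 1, -0.34 on replicate 2, -0.0016 on replicate 3 and 0.29 on replicate 4. On replicate 4 all 5 were above 0, and on replicate 2 only 1 was. The overlapping pair, which shares 40 of 60 bases with an offset of 20, gave differences, first minus second, of -0.26, -0.19, 0.32 and 0.28 on replicates 1 to 4. These differences turned sign with the dye orientation although the target is nearly the same, and the dye term of the first of them, at -0.30, was called (adjusted p of 0.0821 in limma). *Igfbp1* and this *Igf1* probe were the members with a called dye effect, which makes 2 of 11 probes against the 14.8% of all kept probes given above. Apart from these and *Igfals*, the dye terms of the other 8 probes, those of *Igfbp2*, *Igfbp3* and *Igfbp4* included, lay between -0.14 and 0.14 (adjusted p of 0.382 to 0.957 in limma).

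**Figure D3:**
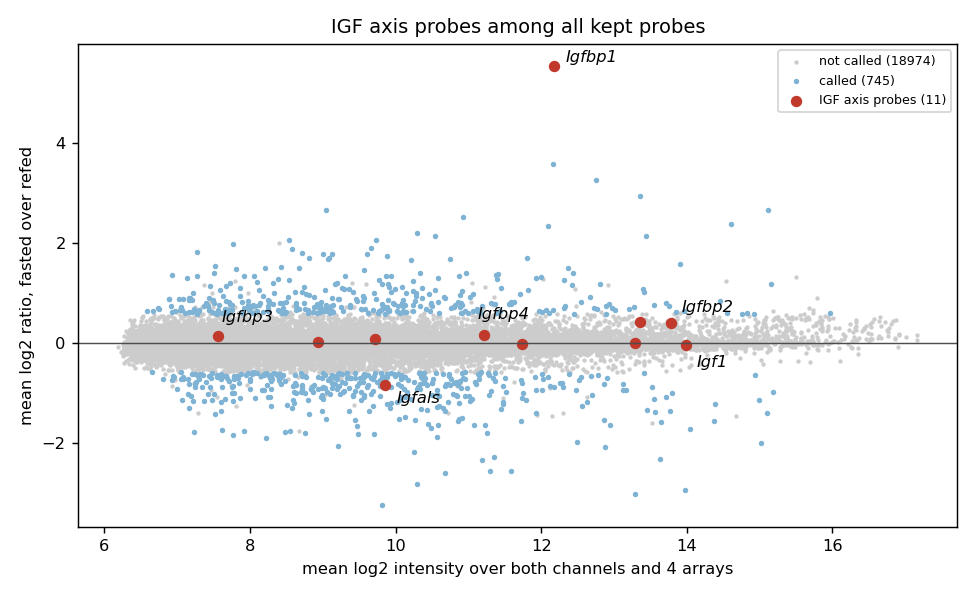
Mean log2 ratio of fasted over refed liver (y axis) against mean log2 intensity over both dyes and 4 arrays (x axis) for all 19719 kept probes. Grey points were not called, blue points were called and red points are the 11 probes of the IGF axis; *Igfbp1* stands at 5.55 above every other probe, *Igfals* at -0.84 is among the called probes, and the other red points lie near 0.

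The positions of the probes, as the files give them in the mm9 build, were as follows. The *Igfbp1* probe lies on chromosome 11 at 7102442 to 7102501 on the plus strand and the *Igfbp3* probe at 7106594 to 7106653 on the minus strand. On the same chromosome the *Igfbp4* probe lies at 98913334 to 98913393. Both *Igfbp2* probes lie on chromosome 1, at 72898677 to 72898736 and 72898813 to 72898872. The *Igfals* probe is on chromosome 17 at 25018251 to 25018310, and the brightest *Igf1* probe on chromosome 10 at 87393581 to 87393640. The files do not say whether a probe lies in coding or untranslated sequence.

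Several genes next to *Igfbp2*, *Igfbp3* and *Igfals*, by the order of RefSeq genes, were measured and were not called. *Igfbp5*, the neighbour of *Igfbp2*, had log2 ratios of -0.47, -0.47, -0.19 and -0.29 with a mean of -0.35 (adjusted p of 0.0633 in limma), which missed the limit of 1.5-fold. *Rpl37a*, on the other side of *Igfbp2*, was at 0.07. *Fahd1* and *Nubp2*, which flank *Igfals*, were at -0.40 and -0.44 (adjusted p of 0.301 and 0.0965 in limma), and *Nubp2* missed the limit of 1.5-fold. *Tns3*, beside *Igfbp3*, was at -0.17.

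The genes whose 4 log2 ratios came closest to those of a called member were found by the root mean square difference over the 4 arrays. For *Igfbp1* they were *G6pc* (glucose-6-phosphatase, the last step of glucose output), *Mt2* (a metallothionein) and *Angptl4* (an inhibitor of lipoprotein lipase), at differences of 2.11, 2.32 and 2.71. *G6pc* had log2 ratios of 3.66, 4.07, 3.17 and 3.49, all below those of *Igfbp1*. None came close, since no other probe had a mean as high. For *Igfals* the closest were *Pdilt* (a protein disulfide isomerase relative), *Tubb5* (a tubulin) and *Slc35c1* (a sugar-nucleotide transporter), at 0.12, 0.14 and 0.17, and like *Igfals* they had their lowest log2 ratio on replicate 2.

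The rest of the IGF pathway and the signalling routes that control it were described with 35 further genes. All 35 were on the array and 25 were kept, with 1 called higher in fasted liver, 0 called lower in limma and 24 not called. By the brightest probe of each gene, 1.82% of all kept genes were called higher and 2.13% lower. At an unadjusted p under 0.05 there were 9 of the 25, against 21.6% of all kept probes. The median over the 25 genes was a log2 ratio of 0.02, against -0.00099 over all kept probes. *Igf2*, *Igfbp7*, *Igfbpl1*, *Pappa*, *Pappa2*, *Stc1*, *Stc2*, *Akt1*, *Foxo3* and *Foxo4* had no kept probe and have no value. A probe can be dropped for a dim signal or for lacking a value on an array, and which of these applied is not given.

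Among ligands and receptors 3 of 4 genes were kept and 0 called. *Insr*, the insulin receptor, had log2 ratios of 0.22, 0.31, 0.44 and 0.68 with a mean of 0.41 (adjusted p of 0.0618 in limma), which missed the limit of 1.5-fold. The IGF receptors *Igf1r* and *Igf2r* were at 0.098 and -0.02. Of the other binding proteins, *Igfbp5* was given above and *Igfbp6* was at -0.098 (adjusted p of 0.666). *Htra1*, a secreted protease that can cut binding proteins, was at 0.14.

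The insulin and FOXO branch held the called gene of the pathway. *Irs2*, a docking protein of the insulin receptor, had log2 intensities of 10.103, 9.05, 9.98 and 10.79 in fasted and 8.72, 8.13, 8.76 and 8.90 in refed liver. All fasted livers were above all refed ones, as at 5.80% of all kept probes. Its log2 ratios of 1.38, 0.92, 1.21 and 1.88 averaged 1.35 ± 0.40 (SD, n = 4; adjusted p of 0.0111 in limma), and 1.395 without replicate 3 (adjusted p of 0.0468). *Foxo1*, a transcription factor that insulin signalling keeps out of the nucleus, had log2 ratios of 0.23, 1.37, 0.42 and 0.47 with a mean of 0.62 (adjusted p of 0.115 in limma). Its fasted livers too were all above its refed ones. *Pik3r1*, the regulatory subunit of the lipid kinase downstream of the receptor, was at -0.55 (adjusted p of 0.0467) and missed the limit of 1.5-fold, while *Irs1* and *Akt2* were at -0.19 and -0.03.

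All 9 genes of growth hormone signalling were kept and 0 were called. The receptor *Ghr*, the kinase *Jak2* and the transcription factors *Stat5a* and *Stat5b*, through which growth hormone drives *Igf1* and *Igfals*, were at 0.05, 0.14, 0.02 and 0.34 (adjusted p from 0.218 to 0.959 in limma). *Socs1*, a feedback inhibitor of cytokine signalling, was at -0.31 (adjusted p of 0.0704) and missed the limit of 1.5-fold. All its fasted livers were below its refed ones, as were those of *Igfbp5* and of 7.79% of all kept probes. The feedback genes *Cish* and *Socs2*, both targets of STAT5, differed by orientation. *Cish* had log2 ratios of -3.25, -1.70, 0.13 and -0.14 and *Socs2* of -1.65, -1.66, -0.26 and 0.35. For *Cish*, the refed livers of replicates 1 and 2 were at 12.15 and 9.88 and all 6 other livers between 8.18 and 9.39. *Bcl6*, a repressor that opposes STAT5, ran the other way, at 1.31, 1.72, -1.14 and -1.82.

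Male-biased growth hormone targets, which depend on the pulses in which male animals release the hormone, had 5 of 5 genes kept and 0 called. *Hsd3b5* was at -1.94, -2.99, -0.52 and -0.17 with a mean of -1.41 (adjusted p of 0.136 in limma), and *Elovl3* at 0.15, -0.32, 2.64 and 2.04 with a mean of 1.13 (adjusted p of 0.261). *Cyp2d9* was above 0 on all 4 arrays with a mean of 0.34 (adjusted p of 0.137). A dye effect was called for 7 of the 25 pathway genes (28%, against 14.8% of all kept probes), which were *Htra1*, *Socs2*, *Socs3*, *Cish*, *Bcl6*, *Hsd3b5* and *Elovl3*. Whether these follow the dye or the livers cannot be told apart, since replicates 1 and 2 held other mice than replicates 3 and 4. With a dye term, which sets that difference aside, *Irs2*, *Foxo1* and *Elovl3* were called higher and *Cish*, *Socs2* and *Hsd3b5* lower in fasted liver, where the same model called 1.93% of all kept probes higher and 2.26% lower.

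**Figure D4:**
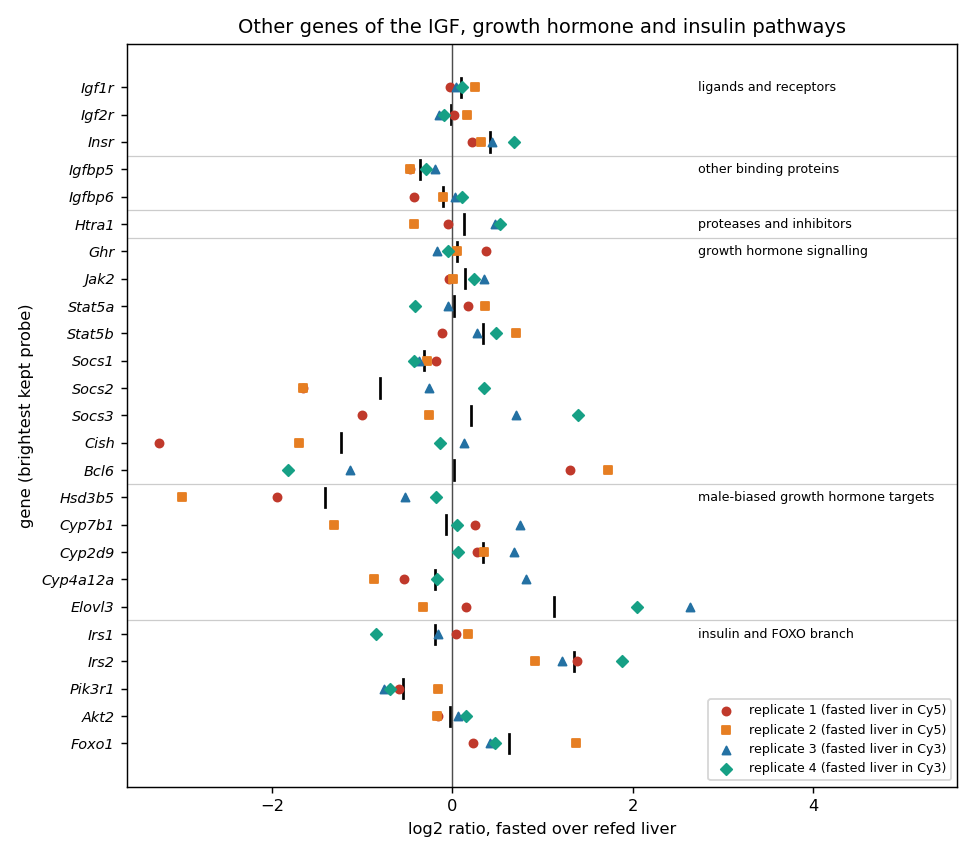
Log2 ratio of fasted over refed liver (x axis) for the brightest kept probe of 25 pathway genes (y axis), grouped by role. Each symbol is 1 array and the black tick is the mean; *Irs2* lies above 0 on all 4 arrays and was called, and for *Bcl6*, *Cish*, *Hsd3b5* and *Elovl3* the arrays with the fasted liver in Cy5 lie apart from those with it in Cy3.

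The promoters of the 2 called members are given because the hormones that act on them are known. RefSeq lists 9 promoters of the 6 genes (build GRCm38.p6, 250 bases before to 50 after each start site), of 32851 in all. The 250 bases before the start are printed for *Igfbp1* at chr11:7197537-7197786 and for the first listed start of *Igfals* at chr17:24877594-24877843, both on the plus strand. Capitals mark a match to a motif searched on both strands, CAAAACA in *Igfbp1* and TTCNNNGAA in *Igfals*.

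Igfbp1 promoter: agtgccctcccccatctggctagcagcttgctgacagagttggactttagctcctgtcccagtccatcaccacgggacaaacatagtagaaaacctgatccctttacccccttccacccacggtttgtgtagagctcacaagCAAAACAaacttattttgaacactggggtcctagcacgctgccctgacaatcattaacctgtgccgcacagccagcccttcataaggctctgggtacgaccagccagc
Igfals promoter: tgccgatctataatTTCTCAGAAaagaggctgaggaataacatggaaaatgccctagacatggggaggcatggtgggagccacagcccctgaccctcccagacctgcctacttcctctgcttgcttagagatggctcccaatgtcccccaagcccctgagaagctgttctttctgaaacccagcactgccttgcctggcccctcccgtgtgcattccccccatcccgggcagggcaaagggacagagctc

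CAAAACA, the core of the insulin response element, was found 108 bases before the *Igfbp1* start and in 0 of the other 8 member promoters, and 6.28% of all promoters hold it. TTCNNNGAA, the STAT5 motif, was found in 2 of the 9, both of *Igfals*, and in 8.3% of all. The FOXO core GTAAACA stood in 1 of the 9, at another *Igfals* start, and in 3.65% of all. TGACGTCA, the cAMP response element, was in 0 of the 9 and 1.79% of all. Its 5-base part TGACG, which the full element contains, was in 2 of the 9, both of *Igfals*, and in 20.8% of all. The C/EBP palindrome TTGCGCAA and the HNF1 motif were in 0 of the 9, and in 0.183% and 0.00913% of all. TATAAA was in 1 of the 9, that of *Igfbp4*, and in 13.6% of all. A match describes letters in this window and is not a measured binding site.

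The members were also compared under 20 processing alternatives. *Igfbp1* was called in 19 of them and *Igfals* in 16, both always with the same sign. *Igfbp2*, *Igfbp3* and *Igf1* were called in 0 of 20. *Igfbp4* was called in 0 of the 19 in which its probe had a value, since it dropped out when the software's background flags chose the spots to leave out. *Igfbp1* lost its call when the background fit used all spots, as *Igfals* did.

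**Figure D5:**
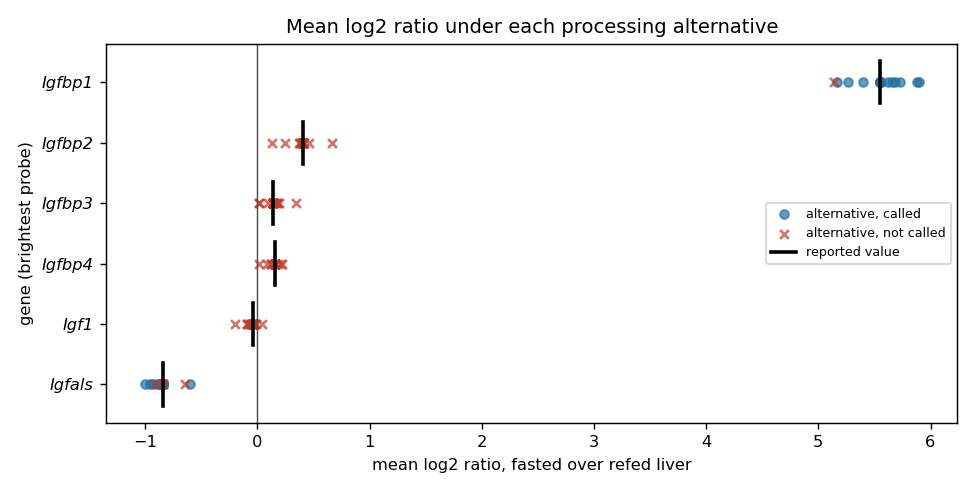
Mean log2 ratio of fasted over refed liver (x axis) of the brightest probe of each gene (y axis) under each processing alternative. Blue circles mark alternatives in which the probe was called, red crosses those in which it was not, and the black tick is the reported value; *Igfbp1* stays between 5.14 and 5.89 and *Igfals* between -1.01 and -0.60.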

How the data were processed

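RNA of 4 fasted and 4 refed livers (200 ng each) was measured on 4 dual-colour Agilent arrays of 44397 spots. The authors' deposited scanner files hold the unprocessed intensity of every spot, its local background and quality flags, as written by Agilent's Feature Extraction. The authors also deposited a table of log2 ratios, normalized by loess in limma, which was used as an alternative. Per the labels, fasted and refed livers were paired at random and with swapped dyes, and each liver came from its own mouse.

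Median intensities were processed with limma 3.58.1 in R 4.3.3. Spots with a local background over 3 times the array's median were left out (55 over all arrays), then normexp with an offset of 50 and loess within each array were applied, with control spots at weight 0. Outlier spots were dropped (197 to 322 per array). Median brightness was 40 to 75 in red and 44 to 96 in green, over backgrounds of 25 to 35 and 20 to 33. Probes were kept if they had a value on all 4 arrays and were well above background on all 4 in at least 1 condition. Ratios were turned to fasted over refed and tested with lmFit and eBayes, with Benjamini-Hochberg adjustment over 19719 probes. The methods of the study name SAM at the same limits, which was rebuilt with all 16 sign flips as an alternative. Levels per liver are channel intensities after loess and Aquantile; no probe's level was set against another's in a test. Each gene is represented by its brightest kept probe unless all probes are given. Steps were tested on simulated data.

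The members, the pathway and marker lists and this processing were chosen with earlier results of these data known. All 6 members are named, every called pathway gene is named, and other pathway genes were named for their role. The comparison of protein sequences was not made. The 3 genes nearest to each called member were taken by root mean square difference. Probes took RefSeq names (GRCm38.p6) by accession (26055) or by symbol or synonym (4134). Alternatives covered background correction, source of values, normalization, filters, dye, test, threshold, probe choice and leaving out each replicate.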

Additional observations from a re-analysis of the deposited data

How the results depend on the processing

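Of the member probes, only those of *Igf1* changed sign in any of 20 alternatives. With normexp fitted on all spots, including those with local backgrounds of up to 443380, *Igfbp1* was at 5.14 (adjusted p of 0.177) and *Igfals* at -0.65 (adjusted p of 0.559), so 0 members and 0 pathway genes were called, and 5 probes in all were higher and 15 lower. At an adjusted p under 0.05, *Igfals* at -0.84 (adjusted p of 0.0600) was not called, which left 0 members lower. Leaving out each replicate in turn gave 5.16 to 5.89 for *Igfbp1*, -1.01 to -0.60 for *Igfals*, 0 to 1 members lower (0 without replicate 1 and without replicate 3), 0 to 1 pathway genes lower, and 209 to 414 probes higher and 257 to 525 lower, fewest without replicate 3. Over all probes, 549 were higher and 714 lower with plain subtraction, 685 and 904 with Agilent's processed signals, and 635 were lower with median centring.

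Of the pathway genes, 3 were called lower with plain subtraction and with processed signals (*Socs1*, *Pik3r1*, *Igfbp5*), 1 with no background correction and with the deposited log2 ratios (*Pik3r1*), and 2 with median centring (*Pik3r1*, *Hsd3b5*). A dye term called 3 higher and 3 lower, and rebuilt SAM 2 higher (*Irs2*, *Foxo1*) and 3 lower (*Socs2*, *Cish*, *Hsd3b5*). Separate channel fits, with the array that pairs the livers as a random block and with no replicate block, called 2 higher (*Irs2*, *Foxo1*) and changed no member's call, with *Igfals* at an adjusted p of 0.0247 and 0.0377. *Irs2* was called in 19 of 20 alternatives. The cause of these changes was not tested.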
